A study of Mus musculus with 10 samples.

Results

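Paneth cells are secretory cells of the crypt base of the small intestine. They pack granules with antimicrobial proteins, chiefly alpha-defensins (small pore-forming peptides made as precursors) and lysozyme, and they supply the neighbouring Lgr5+ stem cells with EGF, Wnt3 and Notch ligands. They arise from the same secretory progenitors as goblet cells, the mucus producers, and canonical Wnt signalling through TCF factors is known to drive their maturation and several alpha-defensin genes. The cells described here were those that the deposited cell annotation names PC, in mouse small intestinal organoids profiled by droplet-based 3' single-cell RNA-seq. They numbered 229 of 22139 kept cells from the 8 organoid libraries, or of 25204 kept cells in the whole series. They are set against the cells annotated as goblet cells (GC, 1425 cells) and stem cells (SC, 6065 cells) of the same libraries. The class names came from clustering of these same cells, so differences in level between classes below are a description with no test. Tests were made between culture media, and of whether the effect of medium differed between classes.

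The organoids were grown in Matrigel from crypts of the proximal small intestine and compared 3 media. ENR medium, the conventional one, holds EGF, Noggin and R-Spondin 1, and was represented by 3 libraries taken at passages 2, 7 and 3. Hyper medium holds 8 components, namely LDN193189 (an inhibitor of BMP type I receptors), GSK-3 Inhibitor XV, Pexmetinib, VPA (valproic acid, a histone deacetylase inhibitor), EPZ6438 (which blocks EZH2, the enzyme that methylates a lysine of histone H3), EGF, R-Spondin 1 conditioned medium and FGF2. It was represented by 3 libraries at passages 1, 6 and 3. The -VE medium is the same mixture without VPA and EPZ6438, with 2 libraries at passages 1 and 6. From the sample codes and passages the libraries were read as 3 culture series, a grouping that the labels do not state. In 1 the ENR library at passage 2 goes with -VE and Hyper libraries at passage 1, in another the ENR library at passage 7 with -VE and Hyper libraries at passage 6, both derived from ENR-organoids, and in the last ENR and Hyper libraries, each at passage 3, came from primary crypts. Within the first and second of these the ENR library was 1 passage ahead by its label, which cannot be told apart from the medium, and the series from primary crypts has no -VE library here. The labels name neither strain nor genotype, and nothing says that the libraries came from separate animals. Nor do they say whether libraries of 1 medium at different passages came from separate cultures. The p-values thus measure only the spread between these libraries.

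The alpha-defensin genes named below lie close together on chromosome 8, from Defa30 (21134642 to 21135598) to Defa24 (21734494 to 21735471; GENCODE positions in mm10, the build of the counts). To show the kind of sequence that stands before them, the 250 bases upstream of the start of 3 genes are printed as RefSeq gives them (build GRCm38.p6), 5' to 3' on the gene's strand. RefSeq starts Defa30 at 21134650, downstream of the GENCODE start given above, so its window runs past that start. Defa30 was the second most abundant alpha-defensin here and Defa22 one whose level differed between media, and Lyz1, the lysozyme gene of Paneth cells, is shown for comparison. Capitals mark matches to a TCF-type heptamer (either CTTTGAA or CTTTGAT, or else CTTTGTA or CTTTGTT), searched on both strands, so that ATCAAAG is the second of these read on the other strand.
Defa30, chr8:21134400-21134649, plus strand: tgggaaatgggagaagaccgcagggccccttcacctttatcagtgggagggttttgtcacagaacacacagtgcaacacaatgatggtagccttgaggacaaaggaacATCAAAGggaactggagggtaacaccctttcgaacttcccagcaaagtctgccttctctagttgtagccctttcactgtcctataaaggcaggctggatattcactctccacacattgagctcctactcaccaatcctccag
Defa22, chr8:21162027-21162276, plus strand: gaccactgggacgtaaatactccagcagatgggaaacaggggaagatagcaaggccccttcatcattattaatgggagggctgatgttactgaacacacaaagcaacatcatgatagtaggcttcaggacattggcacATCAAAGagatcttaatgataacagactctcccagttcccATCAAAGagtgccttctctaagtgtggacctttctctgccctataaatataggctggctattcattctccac
Lyz1, chr10:117292869-117293118, minus strand: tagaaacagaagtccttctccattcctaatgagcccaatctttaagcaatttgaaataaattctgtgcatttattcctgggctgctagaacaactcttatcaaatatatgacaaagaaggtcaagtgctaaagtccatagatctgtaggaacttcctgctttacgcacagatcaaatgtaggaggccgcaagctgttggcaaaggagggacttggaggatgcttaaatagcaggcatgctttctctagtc
Defa30 held 1 match and Defa22 held 2, while the Lyz1 window held 0. Among other genes searched Mptx1 held 2, and Ang4 and Itln1 held 0. Of the 2 windows of Mmp7, 1 held a match, at chr9:7692091-7692340, downstream of the GENCODE start at 7692090. The window upstream of that start held 0. Of the 26 alpha-defensin genes counted here 11 had a promoter in the RefSeq set, and 11 of these 11 held a match, against 4874 of all 32851 promoters, or 14.8%. The alpha-defensin genes are near copies of each other, so these windows are not independent, and a match is a description of the letters rather than of binding. Whether the number of matches went with any change between media was not tested.

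Paneth cells were rare in every library and rarest in Hyper medium. They made up 1.46% of the kept cells in ENR replicate 1 (32 of 2189, exact 95% interval 1.00 to 2.06%), 1.54% in replicate 2 (40 of 2601, 1.10 to 2.09%) and 2.30% in replicate 3 (54 of 2348, 1.73 to 2.99%). In -VE-organoids they made up 1.26% (30 of 2390, 0.848 to 1.79%) and 1.37% (59 of 4293, 1.05 to 1.77%). The 2 media differed by -0.452 percentage points (1.31 ± 0.0842%, SD, n = 2, against 1.77 ± 0.463%, n = 3), with all -VE values below all ENR values and an exact two-sided permutation p of 0.2, the smallest that 3 against 2 libraries allow (0.2 after Benjamini-Hochberg adjustment over 3 such tests). It was smaller among deeper cells: with at least 1500 genes it was -0.0685 points with overlapping groups (exact permutation p = 0.4), with at least 5000 UMIs -0.213, and without ENR replicate 3 -0.185. The direction depended on the way cells were named. Cells were also taken by their counts instead (at least 3 UMIs, or unique transcript molecules, of at least 3 of Ang4, Lyz1, Defa30 and Defa3). The -VE share was then the higher one, 3.28 ± 0.140% against 2.09 ± 0.188%, a difference of 1.19 points. In -VE replicate 1 that rule took 76 cells, of which 28 carried the Paneth name and 37 the goblet name, and in -VE replicate 2 it took 145, of which 59 were Paneth and 73 goblet. In the ENR libraries it took 44, 60 and 46 cells, of which 27, 35 and 32 were Paneth and 11, 18 and 9 goblet.

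In Hyper-organoids 10 of 2812, 2 of 3523 and 2 of 1983 cells carried the Paneth name, or 0.356% (0.171 to 0.653%), 0.0568% (0.00688 to 0.205%) and 0.101% (0.0122 to 0.364%). All 3 values lay below all 3 ENR values, a difference of -1.60 points (exact two-sided permutation p = 0.1, the smallest that 3 against 3 allow; adjusted 0.2). By marker counts the difference was -0.727 points, 1.37 ± 0.269% against 2.09 ± 0.188% (n = 3 each), since that rule took 47, 41 and 25 Hyper cells, of which 25, 38 and 19 carried the goblet name. The lower share in Hyper medium was thus smaller in size, still without overlap, when cells were taken by counts. Per 100 goblet cells there were 29.9, 27.2 and 43.2 Paneth cells in the ENR libraries, 17.3 and 15.6 in the -VE libraries, and 6.33, 0.976 and 1.53 in the Hyper libraries. These values set Paneth cells against their sister lineage and kept the order ENR, -VE, Hyper without overlap. The goblet share itself was higher in the -VE libraries (173 of 2390 and 379 of 4293 kept cells) than in the ENR libraries (107 of 2189, 147 of 2601 and 125 of 2348). The lower -VE ratio thus rests in part on more goblet cells.

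**Figure D1:**
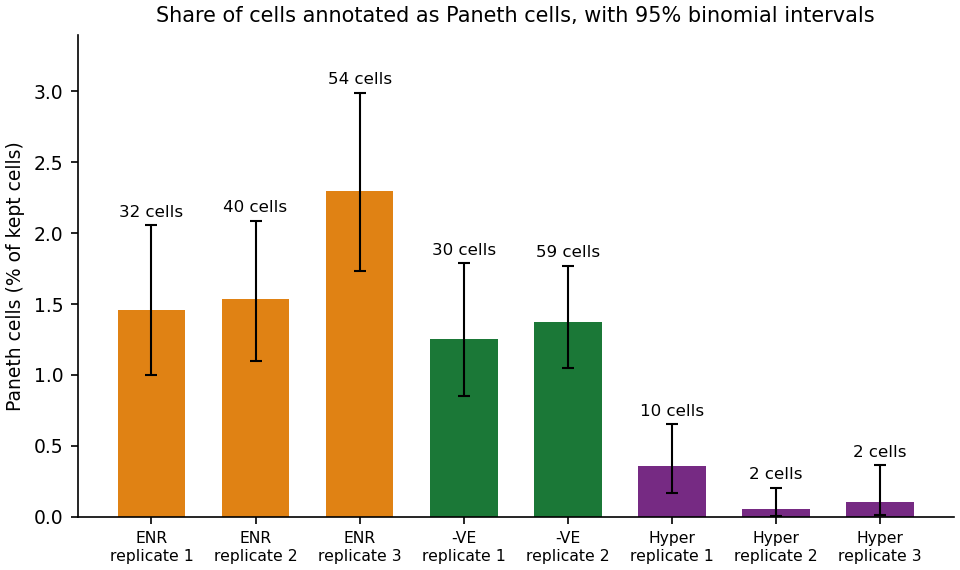
Share of kept cells annotated as Paneth cells in each of the 8 organoid libraries, in percent, with exact 95% binomial intervals that cover counting error only. ENR libraries sit between 1.46 and 2.30%, -VE libraries at 1.26 and 1.37%, and Hyper libraries at or below 0.356%.

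The Paneth cells carried fewer transcripts than their neighbours. Their median UMI count was 21579, 22273 and 12989 in the ENR libraries and 29092 and 19821 in the -VE libraries, below that of goblet cells (24335 to 36619) and stem cells (31294 to 43892) of the same library in each case. Of the 54 Paneth cells of ENR replicate 3, 20 held under 5000 UMIs, against 2 to 6 cells in each of the other 4 libraries. The median alpha-defensin share of cells under 5000 UMIs was 22.9% in that library, against 38.2% in its deeper cells, and it was lower than in deeper cells in ENR replicate 2 and -VE replicate 1 as well (17.9 against 31.5% and 17.4 against 30.1%). It was higher in ENR replicate 1 (39.7 against 29.5%) and -VE replicate 2 (37.7 against 25%). With 2 to 6 shallow cells in 4 of the libraries, these medians cannot show whether share followed depth. Without the 10% of cells with most UMIs the pooled share was higher in each library. It went from 35.7, 35.7 and 36.6% to 36.5, 37.5 and 40.9% in ENR medium, and from 32.0 and 24.0% to 33.7 and 26.6% in -VE medium. Summed per library, the Paneth cells gave 680345 to 1344572 UMIs, and the 14 Hyper cells 349722 in all. Among the organoid libraries 63 cell barcodes occurred in more than 1 library, 1 of them a Paneth cell.

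The markers were high, as the choice of the class had fixed, since its naming rests on genes of this kind. The summed level of the 6 Paneth markers (Lyz1, Mmp7, Defa24, Ang4, Defa30 and Defa3) was 236216 to 335429 CPM (counts scaled to 1000000 UMIs of the class in that library) in Paneth cells, 23171 to 33417 in goblet cells and 137 to 281 in stem cells. In mm10, Lyz1 lies at chr10:117287797-117292868 (minus strand), Mmp7 at chr9:7692090-7699585 (plus strand) and Ang4 at chr14:51763878-51773590 (minus strand), each a protein-coding gene. The tuft cell markers Dclk1 and Trpm5 and the leukocyte marker Ptprc had no UMI in the Paneth cells of any of these 5 libraries, and 4 enteroendocrine markers summed to 2.75 to 13.4 CPM. The 4 stem cell markers summed to 136 to 792 CPM, against 324 to 431 in goblet and 1958 to 4560 in stem cells, the 3 transit-amplifying markers to 226 to 806, against 1203 to 2130 and 1085 to 1554, and the 4 enterocyte markers to 55.0 to 216, against 108 to 332 and 62.2 to 185. The 4 goblet markers (Agr2, Tff3, Muc2 and Fcgbp) were at 13322 to 24191 CPM in Paneth cells against 15996 to 31450 in goblet cells.

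Droplets also hold free RNA, and the most abundant Paneth transcripts were seen in cells that should lack them. With each cell thinned to 5000 UMIs (shallower cells, 34 of 215, left out), Defa24 was found in all Paneth cells, but also in 8.83 to 27.4% of the cells annotated as enterocytes (EC). Lyz1 was found in 96.6 to 100% of Paneth cells and 7.42 to 17.5% of enterocytes, or 20.9 to 59.7% of enterocytes before thinning. Mmp7, a matrix metalloproteinase that cuts pro-defensins into their active form in mice, was cleaner, at 94.1 to 100% of Paneth cells and 0 to 1.37% of enterocytes.

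One gene family gave a large part of all Paneth cell transcripts. The 26 alpha-defensin genes of the table, 23 of them with UMIs in the Paneth cells of each library, held 35.7, 35.7 and 36.6% of the Paneth cell UMIs in the ENR libraries and 32.0 and 24.0% in the -VE libraries. In goblet cells they held 1.59 to 3.20% and in stem cells 0.00981 to 0.0249%. Single cells varied widely around these values, from 4.25 to 71.4% in ENR replicate 3 and from 8.91 to 53.1% in -VE replicate 2, with medians of 30.8 to 32.1% in the ENR libraries and 28.9 and 25.3% in the -VE libraries. Few Paneth cells were low: 11 of the 215 held 10% or less. The share in -VE medium differed from that in ENR medium by -8.01 percentage points (28.0 ± 5.72%, n = 2, against 36.0 ± 0.481%, n = 3, exact two-sided permutation p = 0.2, the smallest possible; adjusted 0.2), and the groups did not overlap. The difference was -3.97 points without -VE replicate 2 and -12.1 without -VE replicate 1, so its size rested on which -VE library was read. These 2 libraries also differed in passage, replicate 1 being at passage 1 and replicate 2 at passage 6.

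**Figure D2:**
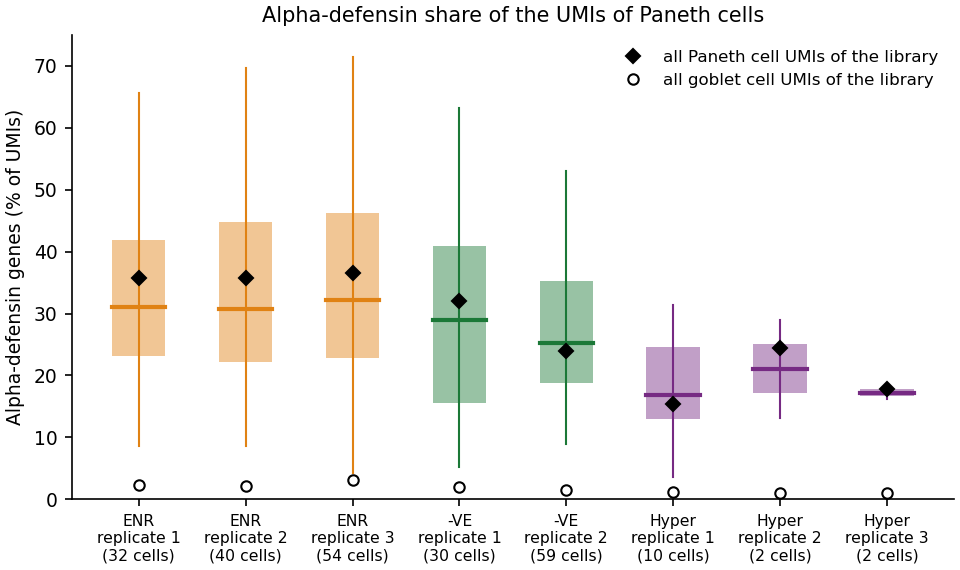
Percent of each Paneth cell's UMIs that came from alpha-defensin genes, by library. Lines span the lowest to the highest cell, boxes the quartiles, bars the median, diamonds all Paneth cell UMIs pooled and open circles all goblet cell UMIs pooled. Pooled Paneth values run from 15.3 to 36.6% and pooled goblet values stay at or below 3.20%.

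Within the family Defa24 came first and Defa30 second in each of the 5 libraries, and the order below them changed. Defa24 gave 56.2 to 66.7% of the family's UMIs and Defa30 17.8 to 25.1%. The third place went to Defa17 in ENR replicate 1 (13997 CPM), to AY761184 in ENR replicates 2 and 3 (14220 and 11379) and to Gm14851 in both -VE libraries (13648 and 9718). Defa24 stood at 238417, 219357 and 236752 CPM in the ENR libraries and at 180026 and 147897 in the -VE libraries. Defa30 stood at 63593, 67908 and 70220 CPM against 80501 and 47242, so that the -VE values enclosed the ENR values. Defa21 ranged from 1403 CPM in -VE replicate 2 to 11464 in ENR replicate 2, with 2441 in ENR replicate 1 and 9725 in ENR replicate 3, and so differed as much between ENR libraries as between media. Reads of near-identical copies can be assigned to the wrong member or lost, so levels of single alpha-defensin genes are less certain than the family's sum.

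Although few, the Paneth cells held most of the organoids' alpha-defensin transcripts. They gave 0.700 to 0.816% of all UMIs of the kept cells in the 5 ENR and -VE libraries but 71.1, 72.3 and 67.5% of the alpha-defensin UMIs in ENR medium and 64.7 and 59.1% in -VE medium, the goblet cells holding 23.8 to 36.6%. Lyz1 was shared more evenly. Paneth cells held 47.0, 46.1 and 55.7% of its UMIs in the ENR libraries and only 33.6 and 21.8% in the -VE libraries, where goblet cells held 55.6 and 71.3%. Some cells named goblet had Paneth-like content, since 11 to 24 goblet cells in each of these libraries had over 10% alpha-defensin UMIs. Across the Paneth cells of a library, Lyz1 and the alpha-defensins, both per UMI outside the family, rose together, with Spearman coefficients of 0.350 to 0.572 (description only: the cells share a library and both values share a denominator).

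Outside the alpha-defensins few abundant genes set Paneth cells apart from both other classes. Of 1108 genes at 50 CPM or more in the Paneth cells of each of the 5 libraries, 66 were at least 4-fold above stem cells in every library and 25 of these at least 4-fold above goblet cells too. Of the 25, 20 were alpha-defensins. The other 5 were Ang4, an RNase-family antimicrobial protein (6.88 to 16.2 times the goblet level), Pnliprp2, a pancreatic lipase-related protein (5.03 to 7.99), Itln1, a lectin that binds microbial sugars (4.67 to 7.67), Clps, the colipase (4.54 to 6.53), and Mmp7 (4.10 to 7.49). Defa24 itself was 8.02 to 11.2 times the goblet level, whereas Gm15293, another member of the family, was at 453 to 1074 CPM in Paneth cells and 0.147 to 0.798 in goblet cells, where 4 of the 5 libraries held fewer than 3 UMIs of it, so no ratio is given. In the other direction 1956 genes reached 50 CPM in both goblet and stem cells of each library, and 1 was at least 4-fold lower in Paneth cells in every library: Ttr, the thyroxine carrier transthyretin, at 6.42 to 16.7 CPM against 78.2 to 149.8 in goblet and 53.2 to 74.3 in stem cells. This holds with the alpha-defensins in the total. The smallest ratios of Ttr were 4.78 to goblet and 4.10 to stem cells, both in -VE replicate 2, where it was at 16.4 CPM against 67.1 in stem cells. Alpha-defensins held 24.0% of the Paneth cell UMIs there. With them left out Ttr was thus under 4-fold lower than in stem cells of that library. The count over all genes was not remade on that total.

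CPM of other genes are pulled down in Paneth cells by the alpha-defensins' share. Over 7984 genes with a median of at least 10 CPM in 1 or more of the classes the median ratio of Paneth to goblet cells was 0.549, or 0.792 with the alpha-defensin UMIs left out of every total, and to stem cells 0.503 or 0.746. Of all 7984 genes 80.4% were below goblet cells in each library and 1.42% above, and 75.1% were below stem cells and 7.34% above. With the alpha-defensins left out these shares were 37.3, 5.44, 47.7 and 14.8%. The counts of the lists below are to be read against them. The values that follow are on the full total unless said otherwise.

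Among the other granule products Lyz1 led. It stood at 24073, 20045 and 25493 CPM in the Paneth cells of the ENR libraries and at 38023 and 33709 in those of the -VE libraries, against 3541, 2875 and 3008 and then 8299 and 11842 in goblet cells, and 51.9 to 80.2 in stem cells. The ratio to goblet cells therefore spanned 2.85 to 8.47. Spink4, a protease inhibitor also typical of goblet cells, was 1.58 to 2.49 times the goblet level in Paneth cells, at 31834 to 47211 CPM. The pentraxin-family gene Mptx2 was higher than in goblet cells in each library, by 3.0 to 165 times, and its relative Mptx1 in 4 of 5. Of 16 such genes at 10 CPM or more, 10 were above goblet cells in each library and 2 below (12 and 1 with the alpha-defensins left out). Pigr, the transporter of secretory antibodies, was one of these, at 299.7 to 364.5 CPM against 833 to 1447.

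The signals that Paneth cells are known to give to stem cells did not stand in 1 relation to goblet cells. Of 10 niche ligand and receptor genes at 10 CPM or more, 0 were above goblet cells in each library and 5 below (4 and 3 with the alpha-defensins left out). Egf was higher in Paneth cells than in both other classes in each library, but at only 4.12 to 14.7 CPM (goblet 1.20 to 4.08, stem 0.324 to 0.852). Wnt3 reached 39.9 to 79.2 CPM in Paneth and 44.3 to 95.1 in goblet cells, and 0.533 to 0.930 in stem cells. It was above the goblet level in 2 of 5 libraries, or in 5 of 5 with the alpha-defensins left out. The Notch ligand genes Dll1 (8.92 to 14.5 CPM) and Dll4 (4.12 to 19.1) were lower than in goblet cells in each library on both totals (50.8 to 102 and 25.7 to 31.4) and higher than in stem cells. Kit, a receptor used to sort Paneth-like cells, was at 46.7 to 76.0 CPM, below goblet cells in each library on the full total and above them in each with the alpha-defensins left out.

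Of the secretory regulators, Bhlha15 (MIST1), which scales up the secretory apparatus, was the 1 of 15 that was above goblet cells in each library on the full total, at 37.2 to 71.5 CPM against 22.6 to 37.5. Atoh1, the factor that commits cells to the secretory lineage, was at 0.318 to 0.553 of the goblet level, Spdef at 0.491 to 0.622 and Gfi1 at 0.214 to 0.431, below it on both totals. Sox9, needed for Paneth cell formation, was at 103 to 158.7 CPM in Paneth cells, against 107.8 to 125.4 in goblet cells, above them in 2 of 5 libraries, or in 5 of 5 with the alpha-defensins left out.

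Genes of protein folding in the endoplasmic reticulum were mostly above stem cells and below goblet cells. Of 29 such genes, 23 were above stem cells in each library and 2 above goblet cells, with 20 below goblet cells (28, 7 and 7 with the alpha-defensins left out). The count below goblet cells, 20 of 29, was no greater a share than the 80.4% of all genes. The 2 were Ddit3 (CHOP, induced by folding stress), at 1.72 to 2.91 times the goblet level, and Ssr4, a subunit of the translocon-associated complex, at 1.04 to 1.38 times. Hspa5, the chaperone BiP, was at 523.3 to 928.2 CPM against 807.5 to 1033 in goblet cells, below in each library, but above in 4 of 5 with the alpha-defensins left out. Txndc5, a disulfide isomerase, was at 0.266 to 0.380 of the goblet level.

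Proliferation and glycolysis genes were mostly lower in Paneth cells than in both other classes, as were most genes on the full total. Of 18 proliferation genes 18 were below goblet cells in each library and 15 below stem cells (16 and 10 with the alpha-defensins left out, when Ube2c and Cdkn1a, an inhibitor of the cell cycle, were above stem cells in each library), Mki67 standing at 8.82 to 76.6 CPM against 111 to 181 in goblet cells. Of 13 glycolysis genes 13 were below goblet cells and 12 below stem cells in each library (7 and 9 with the alpha-defensins left out). Against all genes, at 80.4 and 75.1% on the full total and 37.3 and 47.7% on the smaller one, the counts below stem cells on the full total stand near the general share. Of 12 stem cell markers 11 were below stem cells in each library, or 9 with the alpha-defensins left out, when Hopx was above in each library, with Lgr5 at 13.2 to 45.0 CPM against 79.8 to 111.

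Goblet genes did not move as 1 group. Of 14 at 10 CPM or more, 2 were above goblet cells in each library and 9 below, where 80.4% of all genes were below. With the alpha-defensins left out 3 were above and 8 below, where 37.3% of all genes were below. Muc2, the gel-forming mucin, and Tff3, a trefoil peptide, were near the goblet level on the full total, Muc2 at 942, 678, 742, 574 and 612 CPM in the 5 libraries against 400.2 to 1186, and Tff3 at 10141 to 19928 against 9358 to 19837. Tff3 was above it in 2 of 5 libraries, or in 5 of 5 with the alpha-defensins left out. Ramp1 was above the goblet level in each library. Fcgbp, which binds mucins, was at 0.157 to 0.250 of it, and Zg16 and Clca1, products of mature goblet cells, were at most 0.235 and 0.162 of it.

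**Figure D3:**
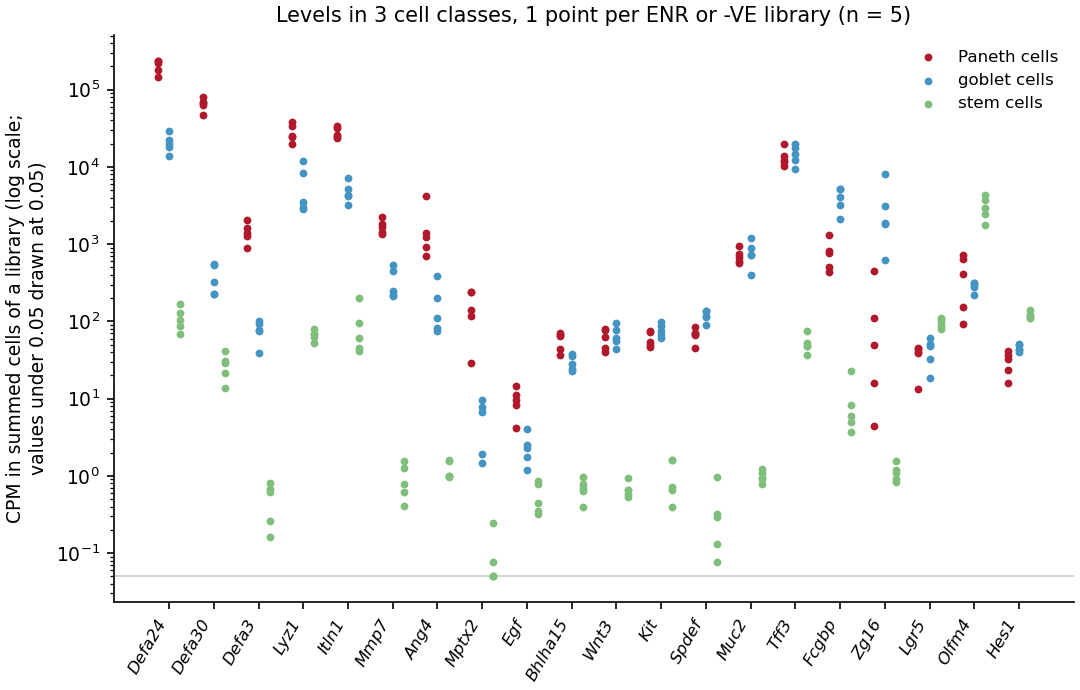
Level of 20 genes in Paneth (PC), goblet (GC) and stem (SC) cells of the 5 ENR and -VE libraries, in CPM (log axis), one point per library. Values under 0.05 are drawn at 0.05. Lyz1, Mmp7, Ang4 and Defa24 are highest in Paneth cells in each library, whereas Muc2, Tff3 and Wnt3 overlap between Paneth and goblet cells.

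The Paneth cells of -VE-organoids were then compared with those of ENR-organoids on summed UMIs, with 2 against 3 libraries. Of 5995 genes tested with edgeR's quasi-likelihood F test, 22 (0.367%) were called higher in -VE medium and 42 (0.701%) lower, 64 in all (1.07%), at an adjusted p under 0.05 and a change of at least 2-fold. The libraries of the 64 did not overlap between media, against 26.1% of all tested genes. Among those called lower were 6 immediate early and stress genes, 4 alpha-defensins, the chemokine gene Ccl6 and the pentraxin gene Mptx1, and among those called higher were Ang4 and 4 proliferation genes. The count depended on the libraries, at 10 without ENR replicate 2, 25 without ENR replicate 1 and 37 without -VE replicate 2, and on the tool, at 27 with DESeq2. With the culture series as a replicate block, where ENR replicate 3 has no partner, it was 104, with 60 of the 64 among them. That fit rests on an assumed pairing and leaves few residual degrees of freedom. The levels in this comparison are CPM scaled by edgeR's TMM factors over the 5 Paneth cell sums, and n is 3 ENR and 2 -VE libraries throughout.

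Of the 4 markers 1 was called. Lyz1 was at 27263, 20602 and 26815 in the ENR libraries and 39766 and 29439 in the -VE libraries, higher in both but not past the test (log2 change 0.48 ± 0.17, SE; edgeR adjusted p = 0.264). Mmp7 overlapped, at 1868, 1455 and 1425 against 2363 and 1606 (0.33 ± 0.18, adjusted p = 0.553). Defa24 was at 270008, 225453 and 249025 against 188280 and 129165, lower in both -VE libraries without passing the test (-0.64 ± 0.17, adjusted p = 0.0784). With the series block Lyz1 (0.53, edgeR adjusted p = 0.0148) and Defa24 (-0.66, 0.00143) passed the p threshold at under 2-fold, and so were still not called. Ang4 was at 1400, 944 and 746 against 1452 and 3701, with the lower -VE value just above the highest ENR value. It rose by 1.33 ± 0.29 on the log2 scale (edgeR adjusted p = 0.0286). The Ang4 call was lost without ENR replicate 1 (adjusted p = 0.0700), ENR replicate 2 (0.307), ENR replicate 3 (0.151) or -VE replicate 2, where the change was 0.51 (0.687), and with DESeq2 on all libraries (0.488). Ang4 was found in 41.4, 51.4 and 55.9% of the ENR Paneth cells thinned to 5000 UMIs and in 60.7 and 86.8% of the -VE Paneth cells, against at most 1.52% of enterocytes.

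Of 23 alpha-defensins tested 4 were called lower and 0 higher, where 0.701% of all genes were called lower and 0.367% higher. Of the estimates 8 lay above 0, and the median change was -0.26 against -0.00478 over all genes tested. AY761184, an alpha-defensin known only by its clone name, was at 13313, 14615 and 11968 in the ENR libraries and 3993 and 5629 in the -VE libraries, which did not overlap. It fell by 1.47 ± 0.18 on the log2 scale (edgeR adjusted p = 0.000251) and was called in each alternative that tested it. Defa22 was at 3319, 6979 and 6682 against 1821 and 1412 and fell by 1.81 ± 0.25 (edgeR adjusted p = 0.00140, or 0.0503 without ENR replicate 2). Both showed groups well apart, the Defa22 values in ENR medium spreading the most.

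Defa27 (206, 529 and 970 against 188 and 126) fell by 1.88 ± 0.41 (edgeR adjusted p = 0.0282) and Defa34 (1040, 874 and 416 against 370 and 139) by 1.63 ± 0.36 (0.0286), each with a narrow gap between media. The Defa27 call was lost without ENR replicate 2 (adjusted p = 0.228), ENR replicate 3 (0.0895) or -VE replicate 2 (0.0982), and the Defa34 call without ENR replicate 1 (0.248), ENR replicate 2 (0.293) or -VE replicate 2 (0.156). DESeq2 on all libraries called neither (0.417 and 0.421). Defa30 was not called (-0.20 ± 0.21, edgeR adjusted p = 0.798), nor was Defa3 (0.22 ± 0.25, 0.807). The family's second member was thus not among the calls.

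Of 16 other antimicrobial and granule genes tested 1 was called higher (Ang4) and 3 lower, where 0.367% of all genes were called higher and 0.701% lower. Ccl6, a chemokine, was at 456, 139 and 265 in the ENR libraries and 15.2 and 26.0 in the -VE libraries, far apart, and fell by 3.70 ± 0.41 on the log2 scale (edgeR adjusted p = 0.000183), a call kept in each of 16 alternatives. Mptx1 was at 6046, 2690 and 1688 against 927 and 316 and fell by 2.49 ± 0.45 (edgeR adjusted p = 0.00835), a call lost without ENR replicate 1 (0.0721) or ENR replicate 2 (0.0926) and with DESeq2 (0.171). Both are secreted proteins, and both were spread widely within ENR medium, Ccl6 by over 3-fold. Pnliprp2 was at 423, 371 and 561 against 237 and 148 and fell by 1.24 ± 0.22 (edgeR adjusted p = 0.00703), with the call lost without ENR replicate 1 (0.0535), ENR replicate 2 (0.0530) or -VE replicate 2 (0.104). Its partner in fat digestion Clps was lower in both -VE libraries too but missed the test (-0.86 ± 0.22, edgeR adjusted p = 0.0635, or -1.43 and called without -VE replicate 1, 0.000356, and -1.12 and called with cells taken by marker counts, 0.00798), and Itln1 and Spink4 were not called (0.24, adjusted p = 0.586, and -0.25, 0.727).

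Of 18 proliferation genes tested 4 were called higher in -VE Paneth cells and 0 lower, where 0.367% of all genes were called higher, and none of the 4 was called in cells taken by marker counts (given below). Over the list 17 estimates were above 0 and the median change was 0.82. Ube2c, a ubiquitin-conjugating enzyme of mitotic exit, was at 33.3, 56.1 and 79.5 in the ENR libraries and 139 and 169 in the -VE libraries and rose by 1.44 ± 0.24 (edgeR adjusted p = 0.00432, or 0.0943 without ENR replicate 2). Cdk1, the mitotic kinase, was at 18.3, 22 and 21.7 against 49.0 and 52.6 and rose by 1.29 ± 0.24 (edgeR adjusted p = 0.00983). Tubb5, a beta-tubulin, rose by 1.14 ± 0.22 (edgeR adjusted p = 0.0109) and Mki67, the Ki-67 antigen gene, by 1.62 ± 0.37 (0.0346). The ranges did not overlap for any of the 4.

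Cdk1, Tubb5 and Mki67 each lost their call without ENR replicate 1, ENR replicate 2 or -VE replicate 2 (edgeR adjusted p of 0.0567 to 0.463). Cdk1 also lost it without the 10% of cells with most UMIs (adjusted p = 0.233) and with cells thinned to 10000 UMIs (0.183). Outside the list, the centromere genes Cenpe (2.78 ± 0.58, edgeR adjusted p = 0.0238) and Cenpa (1.46 ± 0.28, 0.0120) and the mitotic activator gene Cdc20 (1.37 ± 0.32, 0.0434) also rose. Cdc20 lost the call without any 1 of the 5 libraries (edgeR adjusted p of 0.0764 to 0.207), Cenpe without ENR replicate 1, ENR replicate 2, -VE replicate 1 or -VE replicate 2 (0.0714 to 0.699), and Cenpa without ENR replicate 1 (0.0912), ENR replicate 2 (0.178) or the cells with most UMIs (0.397). Markers of transit-amplifying cells (Top2a, Hmgb2 and Tubb5) moved with this group, summing to 226 to 423 CPM in ENR and 575 to 806 CPM in -VE Paneth cells, against 1203 to 2130 in goblet cells, and the part of other cells in the result was not tested. In cells taken by marker counts instead of by name, Ube2c (0.28, edgeR adjusted p = 0.532), Mki67 (0.16, 0.818), Tubb5 (0.18, 0.584) and Cdk1 (0.37, 0.351) were not called, nor were Cdc20 (0.25, 0.590), Cenpa (0.26, 0.584) and Cenpe (0.82, 0.0622).

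Some immediate early genes, which cells switch on within minutes of stimulation or of tissue dissociation, were called lower. Of 13 tested from a list of dissociation stress genes 6 were called lower and 0 higher, where 0.701% of all genes were called lower, and 7 were not called. Over the list 1 estimate was above 0 and the median change was -1.22. Atf3, a stress-induced transcription factor, was at 175, 132 and 146 in the ENR libraries and 30.3 and 27.3 in the -VE libraries, with tight groups far apart, and fell by 2.39 ± 0.21 (edgeR adjusted p = 2.06e-05), a call kept in each of 16 alternatives. Jun was at 511, 471 and 454 against 241 and 160 and fell by 1.27 ± 0.19 (edgeR adjusted p = 0.00215). Btg2, an anti-proliferative gene, fell by 1.57 ± 0.22 (edgeR adjusted p = 0.00117), again in each of 16 alternatives.

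Zfp36 (-1.55 ± 0.24, edgeR adjusted p = 0.00246), Fos (-1.25 ± 0.25, 0.0192) and Egr1 (-1.22 ± 0.19, 0.00267) completed the 6, and the related genes Nr4a1 (-2.42 ± 0.43, 0.00718) and Egr2 (-3.40 ± 0.63, 0.00990) fell as well. Jund did not pass (-0.53 ± 0.18, edgeR adjusted p = 0.246). Without ENR replicate 2 the calls of Jun (0.0503), Egr1 (0.0503), Zfp36 (0.0662), Fos (0.154), Nr4a1 (0.0877) and Egr2 (0.145) were lost, and without -VE replicate 2 those of Jun (0.0498, at under 2-fold), Egr1 (0.0718), Fos (0.217), Nr4a1 (0.0610) and Egr2 (0.0679). Fos (0.161), Nr4a1 (0.0715) and Egr2 (0.0700) also lost theirs without ENR replicate 1, and Nr4a1 without the 10% of cells with most UMIs (-2.10, 0.0632). These genes mark handling as well as signalling, and the part of dissociation in the difference was not tested.

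The remaining large falls were of genes on no list. Isx, an intestine-specific homeobox gene, was at 15, 16.5 and 18.8 in the ENR libraries and 1.17 and 0.650 in the -VE libraries and fell by 4.12 ± 0.68 (edgeR adjusted p = 0.00472), though the call was lost without ENR replicate 2 (0.0530) or -VE replicate 2 (0.0982). Sult1d1, a sulfotransferase (-3.39 ± 0.52, edgeR adjusted p = 0.00265), Aoc1, the diamine oxidase (-2.79 ± 0.44, 0.00318), and Fmo5, a flavin monooxygenase (-2.74 ± 0.49, 0.00774), also fell. Each of these 4 was under 40 CPM, and Sult1d1 (0.0662), Aoc1 (0.0704) and Fmo5 (0.114) lost the call without ENR replicate 2. Acta1, skeletal muscle actin, was at 94.9, 156 and 44.8 against 14 and 20.1 and fell by 2.50 ± 0.40 (edgeR adjusted p = 0.00328, or 0.0503 without ENR replicate 1 and 0.0662 without ENR replicate 2). Gsdma2 and Mymx were the other falls among the 12 of greatest size (-3.53, edgeR adjusted p = 0.0203, and -3.29, 0.0472). Gsdma2 lost the call without -VE replicate 2 (0.314), and Mymx without ENR replicate 2 (0.141) or -VE replicate 2 (0.472), among cells with at least 1500 genes (0.0697) and without the cells with most UMIs (0.0632).

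Among the rises Gsta4, a glutathione transferase, was the most regular, at 16.6, 19.8 and 14.5 in the ENR libraries and 65.3 and 72.1 in the -VE libraries (2.00 ± 0.23, edgeR adjusted p = 0.000251, called in each of 16 alternatives). Gsta4 was higher in -VE medium in the other classes too. Unscaled, it was at 91.0, 77.6 and 120 CPM in ENR and 174 and 245 in -VE goblet cells. In stem cells it was at 95.7, 78.2 and 74.4 and then 225 and 325. Etv5, an ETS factor downstream of FGF and ERK signalling, was at 1.66, 0 and 1.45 against 14 and 11.7 (3.61 ± 0.79, edgeR adjusted p = 0.0301), near the detection limit in ENR cells. Mt3, a metallothionein, was at 35.0, 5.50 and 46.3 against 216 and 82.5 (2.41 ± 0.46, edgeR adjusted p = 0.0114). The values of Gsta4 barely varied within a medium, whereas those of Mt3 varied by more than the gap between media. The Etv5 call was lost without ENR replicate 1 (edgeR adjusted p = 0.0831), ENR replicate 2 (0.195) or -VE replicate 1 (0.231), and the Mt3 call without ENR replicate 1 (0.115) or ENR replicate 2 (0.142) and with DESeq2 (0.523). Cyp2e1, a cytochrome P450 (1.53 ± 0.24, edgeR adjusted p = 0.00328), Rcn1, a calcium-binding protein of the endoplasmic reticulum (1.41 ± 0.24, 0.00525), Lgmn, a lysosomal protease (1.94 ± 0.37, 0.0109), and Copz2, a coat protein subunit (1.72 ± 0.36, 0.0238), rose as well. Without ENR replicate 2 the calls of Cyp2e1 (0.0943), Rcn1 (0.111) and Lgmn (0.138) were lost, and that of Copz2 without ENR replicate 1 (0.212), ENR replicate 3 (0.0538) or -VE replicate 2 (0.0650).

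The lists of niche, folding and secretory regulator genes held 0 or 1 call each, where 1.07% of all genes tested were called. Of 10 niche genes tested 0 were called by edgeR, and 3 estimates lay above 0. Wnt3 was at 51.6, 64.9 and 41.9 in the ENR libraries and 82.8 and 67.6 in the -VE libraries, which did not overlap, without passing the test (0.47 ± 0.22, edgeR adjusted p = 0.435). Kit (-0.50, adjusted p = 0.449), Cd24a (-0.15, 0.797) and Ephb3 (-0.09, 0.935) were not called either. Of 29 folding genes tested 0 were called, with a median change of 0.07. Of 13 secretory regulators tested 1 was called lower, Klf4, a differentiation factor of goblet cells (148, 113 and 184 against 71.1 and 66.3; -1.11 ± 0.21, edgeR adjusted p = 0.0114).

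Of 19 lysosome and autophagy genes 1 was called lower, Map1lc3a, a component of autophagosome membranes (-1.72 ± 0.36, edgeR adjusted p = 0.0241, lost on leaving out any 1 of the 5 libraries, at 0.0503 to 0.183, with thinned cells, at 0.200, and with cells taken by marker counts, at 0.125). Of 11 goblet markers 1 was called lower, Fcgbp (1486, 792 and 869 against 522 and 381; -1.22 ± 0.24, edgeR adjusted p = 0.0129), and of 8 enterocyte markers 1, Prap1 (-1.32 ± 0.26, 0.0129). Over all genes tested 0.701% were called lower, and single calls in lists of this size are to be read against that share. Klf4, Fcgbp and Prap1 each lost the call without ENR replicate 1 or -VE replicate 2, Klf4 also without ENR replicate 3, and Fcgbp and Prap1 also without ENR replicate 2 (edgeR adjusted p of 0.0396 to 0.141, the 0.0396 of Klf4 being at under 2-fold). With the series block Klf4 fell under 2-fold (-0.90, edgeR adjusted p = 0.00457), and with cells taken by marker counts neither Klf4 (0.0876) nor Fcgbp (0.150) was called. Fcgbp was also under 2-fold without the 10% of cells with most UMIs (-0.99) and with cells thinned to 10000 UMIs (-0.96). Of 13 glycolysis genes 0 were called, although 12 estimates lay above 0 with a median of 0.61, and Pkm (0.80, edgeR adjusted p = 0.0363) and Ldha (0.68, 0.0373) passed the p threshold at under 2-fold, Pkm and Pgk1 being called with the series block (each 1.00; edgeR adjusted p = 0.000198 and 0.000145). Of 10 genes of metal ion handling, 7 Wnt targets, 9 stem cell markers, 2 BMP targets, 1 enteroendocrine marker and 3 interferon and MHC class I genes tested 0 were called, while no tuft cell or leukocyte marker was abundant enough to test. Olfm4, a stem cell marker, overlapped between media (-1.21 ± 0.47, edgeR adjusted p = 0.324), but was called lower with no filter on low counts (-1.20, 8.39e-09), without -VE replicate 2 (-2.47, 0.00545) and with cells taken by marker counts (-1.03, 0.0114).

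**Figure D4:**
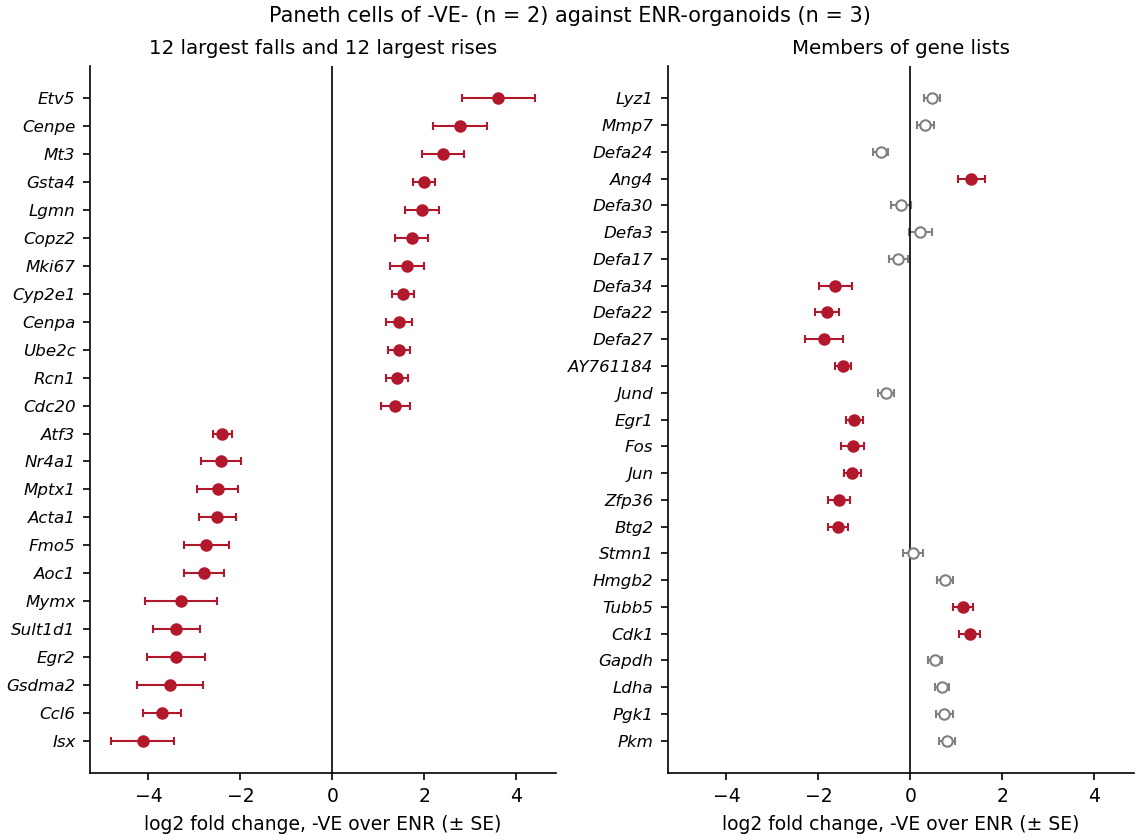
Log2 change of -VE against ENR Paneth cells (points) with standard errors (bars), for the 12 largest falls and 12 largest rises on the left and members of the gene lists on the right. Filled red points were called and open grey points were not. Atf3 at -2.39 and Ccl6 at -3.70 lie among the falls, and Gsta4 at 2.00 among the rises.

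Whether Paneth cells responded to the medium differently from goblet or stem cells was tested as an interaction of class and medium, in 1 fit of 15 sums (3 classes in 5 libraries) with the library as a block. The -VE effect differed from that in goblet cells for 8 of 11264 genes (0.071%), being higher for 2 (0.0178%) and lower for 6 (0.0533%), and from that in stem cells for 19 (0.169%), higher for 5 (0.0444%) and lower for 14 (0.124%). The goblet count was 0 without ENR replicate 2 and 2 without -VE replicate 2, and the stem cell count 4 without ENR replicate 1 and 7 without -VE replicate 2. With the culture series as a replicate block the counts were 22 and 36. Levels here are CPM scaled over the 15 sums.

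For Lyz1 the effect of medium differed between cells named Paneth and cells named goblet. The paper lists Lyz1 among the genes it used to name Paneth cells, so the class border is not independent of it. The marker-count rule took 11 of 107, 18 of 147 and 9 of 125 goblet cells in ENR medium. In -VE medium it took 37 of 173 and 73 of 379. The part of this border in the difference was not tested. Lyz1 was at 38621, 29827 and 38316 in ENR and 58112 and 43170 in -VE Paneth cells, and at 3049, 2395 and 2700 and then 6908 and 9614 in goblet cells. The gap between media was wide in goblet cells and narrow in Paneth cells. The log2 effect was 0.50 in Paneth and 1.59 in goblet cells, a difference of -1.11 ± 0.16 (edgeR adjusted p = 0.00225, or 0.152 without ENR replicate 2, 0.831 without -VE replicate 2 and 0.0538 with a filter of 10 CPM). For Mmp7 the effects were 0.34 in Paneth and 1.03 in goblet cells, a difference past the p threshold at under 2-fold (-0.69 ± 0.13, edgeR adjusted p = 0.0256). For Ang4 the effects were 1.25 and 1.55 and their difference was not called (-0.30 ± 0.20, edgeR adjusted p = 0.820), and for Defa24 they were -0.63 and -0.61 (-0.04 ± 0.21, 1.00).

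Defa22, Defa27 and Defa34 were also among the 8, but no difference in response is read for them, since they were scarce in goblet cells. Of the goblet sums of the libraries, 0 held fewer than 3 UMIs of Defa22 or of Defa34, and 1 held fewer than 3 of Defa27. Defa22 was at 4702, 10104 and 9549 in ENR and 2661 and 2071 in -VE Paneth cells and at 0.856 to 9.20 in goblet cells, where the highest value was -VE replicate 2. In goblet cells Defa27 was at 0.490 to 6.09 and Defa34 at 1.96 to 4.16. None of the 3 was called by edgeR without -VE replicate 2 (adjusted p of 0.296 to 0.927) or without ENR replicate 2 (0.0562 to 0.184), nor by DESeq2 on all libraries (0.546 to 0.602).

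Ube2c rose in Paneth cells, from 47.2, 81.2 and 113.6 to 202.8 and 247.6, while the media overlapped in goblet cells, where it was at 190.5, 380.6 and 302.0 in ENR and 268.7 and 331.8 in -VE medium. The difference of the effects was 1.45 ± 0.19 (edgeR adjusted p = 0.000728, or 0.0562 without ENR replicate 2), but with cells thinned to 10000 UMIs it was 0.95 and not called (0.280). Acta1 differed from both classes, by -2.24 ± 0.42 from goblet (edgeR adjusted p = 0.0256, or 0.184 without ENR replicate 2, 0.811 without -VE replicate 2 and 0.0883 with DESeq2) and by -2.59 ± 0.40 from stem cells (0.00267, or 0.175 without -VE replicate 2). Sct, the secretin gene, was raised by 1.04 ± 0.21 relative to goblet cells (edgeR adjusted p = 0.0498), a call kept in 2 of 12 alternatives.

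Against stem cells, Jun, Btg2, Zfp36 and Nr4a1 were immediate early genes whose -VE effect was lower in Paneth cells. Their log2 effects were -1.24, -1.51, -1.44 and -2.09 in Paneth cells and -0.12, -0.35, -0.41 and 0.33 in stem cells. In goblet cells these genes fell too, with effects of -0.90, -0.97, -0.95 and -0.61, and for none was the difference from goblet cells called. Jun was at 723.9, 681.7 and 648.5 in ENR and 352.7 and 235.3 in -VE Paneth cells, while stem cells overlapped between media (203 to 228 against 251.7 and 160.8). The difference of -1.12 ± 0.15 (edgeR adjusted p = 0.00143) was called in each of 12 alternatives. Btg2 differed by -1.15 ± 0.20 (edgeR adjusted p = 0.0125, or 0.0741 without ENR replicate 1, 0.266 without -VE replicate 2 and 0.118 with thinned cells). Zfp36 differed by -1.03 ± 0.19 (edgeR adjusted p = 0.0132) and Nr4a1 by -2.69 ± 0.52 (0.0194), both outside the rule for named genes and given because their values were seen. Itln1 differed by -1.27 ± 0.22 (edgeR adjusted p = 0.00952, or 0.0741 without ENR replicate 1, 0.138 without ENR replicate 2 and 0.776 without -VE replicate 2), with a log2 effect of 0.27 in Paneth and 1.48 in stem cells. Unscaled, it was at 41.4 to 60.4 CPM in ENR and 95.9 and 200 in -VE stem cells, and in enterocytes, which should lack it, at 13.9 to 40.8 and 41.4 and 101, against 23856 to 33650 in Paneth cells. Thinned to 5000 UMIs, 14 to 14.3% of ENR and 24.4 and 34.9% of -VE stem cells held a UMI of it, and 2.47 to 5.56% and 13.7 and 27.4% of enterocytes. The level thus went the same way in both classes, and the part of free RNA in the stem cell value was not tested. Fam46c was 16.3, 14.3 and 16.7 in ENR and 7.07 and 5.56 in -VE stem cells but 237 to 281 and 189 to 266 in Paneth cells, a difference of 1.13 ± 0.17 (edgeR adjusted p = 0.00267) called in each of 12 alternatives.

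**Figure D5:**
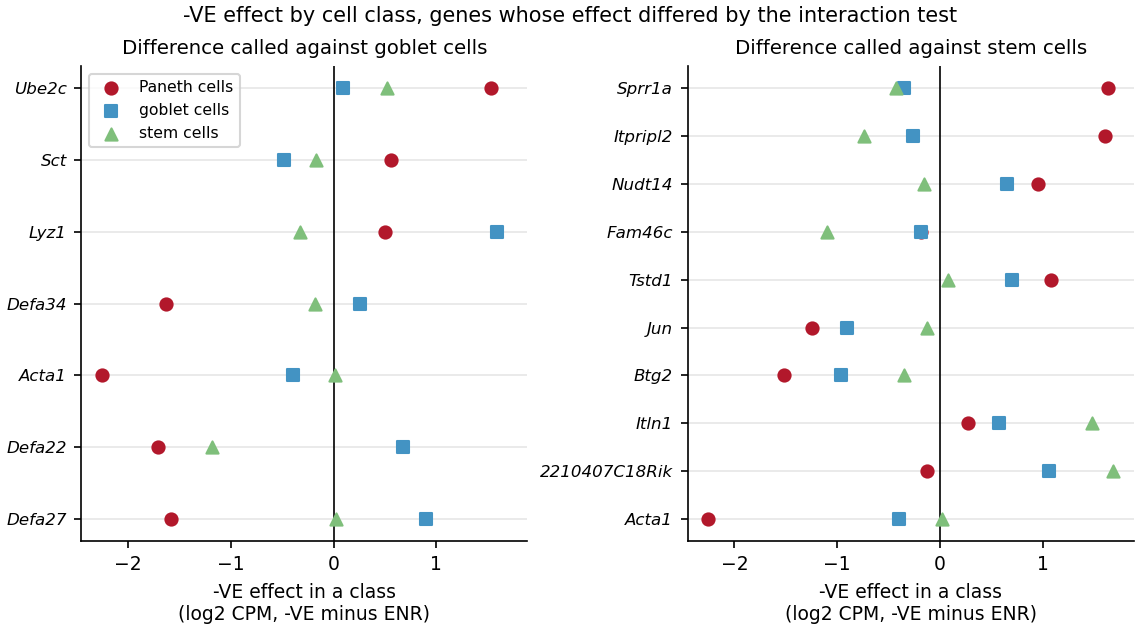
Log2 effect of -VE against ENR medium in Paneth (PC), goblet (GC) and stem (SC) cells for genes whose effect in Paneth cells differed from that in goblet or stem cells, with a prior count of 2. Lyz1 lies at 0.50 in Paneth and 1.59 in goblet cells, and Ube2c at 1.54 and 0.09, while the goblet points of Defa22, Defa27 and Defa34 rest on low levels.

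The 14 Paneth cells of the Hyper libraries were too few for a test and are given as pooled counts with exact Poisson intervals, which cover counting error only; 10 of the 14 came from 1 library. Alpha-defensins held 16.7% of their UMIs, and 15.3, 24.5 and 17.8% in the 3 libraries, below the 35.7 to 36.6% of the ENR libraries. Defa24 stood at 108014 CPM (106928 to 109109), against 219357 to 238417 in ENR cells, and Defa22 at 269 (217 to 329) against 2931 to 6791. AY761184, at 1856 CPM (1716 to 2004), was also below the ENR libraries (11379 to 14220), as it was in -VE cells. Each of these 3 genes was below the ENR range in each Hyper library.

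Mmp7 and Ang4 stood above their ENR levels in each Hyper library, and Lyz1 did not. Mmp7 was at 3074, 5388 and 9207 CPM against 1355 to 1649 in ENR cells. Ang4 was at 6061, 4097 and 10391 CPM against 709 to 1236. Goblet cells went the same way. In the Hyper libraries their Mmp7 was at 809, 1050 and 1112 CPM, against 216 to 246 in ENR goblet cells. Their Ang4 was at 431, 444 and 579 CPM, against 76.2 to 112. Lyz1 was at 37027, 19939 and 11838 CPM against 20045 to 25493, above the ENR range in Hyper replicate 1 and below it in the other 2 libraries, the pooled level being 31774 CPM (31186 to 32370). Reg3g, an antibacterial C-type lectin, was at 140, 49.7 (from 2 UMIs) and 1271 CPM against 5.35 to 29.4. Ccl6 at 11.4 CPM (3.12 to 29.3, from 4 UMIs) and Mptx1 at 88.6 (60.2 to 126) were below the ENR libraries, at 135 to 403 and 1605 to 5338. In these libraries the cells named Paneth held only 30.4, 13.1 and 13.2% of the alpha-defensin UMIs, and the goblet cells 58.1, 80.4 and 75.7%.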

How the data were processed

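The authors sequenced 10x Genomics 3' libraries, aligned the reads to mm10 with Cell Ranger (3.0.0 per the paper's methods, 3.1.0 per the header of 1 matrix) and clustered the cells with Seurat 3.1.4. The authors deposited raw UMI counts for 23810 genes in each kept cell, together with a cell annotation that names each cell's library and class. Cells named PC, GC or SC were used as named, the methods' minimum of 1500 genes being met by most but not all of them. No column of the count table was without a library (0 unmapped), and how doublets were treated is not given in the sources used here; no doublet caller was run, and an alternative leaves out the 10% of Paneth cells with most UMIs.

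Counts were summed per library and class and tested in R 4.3.3 with edgeR 4.0.16 (filterByExpr, TMM, quasi-likelihood F test, Benjamini-Hochberg over all genes tested), and a gene was called at an adjusted p under 0.05 and at least 2-fold. Standard errors are the log2 change divided by the square root of F. The interaction fit had the library as a block. Hyper libraries had under 20 Paneth cells and were not fitted. Shares were compared by exact two-sided permutation over libraries (scipy 1.17.1), with Clopper-Pearson intervals at 95%. The pipeline was tested on simulated data. Summed counts of replicates of a medium differed by more than sampling of single UMIs gives (chi-square per degree of freedom 2.69 to 6.56), and none was counted as a duplicate. UMIs come grouped in cells that differ, so this value cannot show whether libraries shared a culture. Where the table holds several gene IDs of 1 symbol (71 IDs), they were kept apart.

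Genes were named by rule: the markers Lyz1, Mmp7, Defa24, Ang4, Defa30 and Defa3, the 12 greatest rises and falls called with no overlap and at 10 CPM or more, the 25 genes highest and 8 lowest against both other classes, the 5 of lowest p per direction of each interaction, and from each of 19 lists the members called and up to 4 of highest level. The class comparison also gives other list members, chosen for their known roles after values were seen. Members and lists were chosen with earlier results of these data known. Alternatives were DESeq2 1.42.0, other scalings and filters, thinning, other cell choices, each library left out and a replicate block. The block was the culture series as read from the sample codes and passages. Deviations of same-numbered libraries had correlations of 0.122 and -0.0339 over 5995 genes, which with 2 pairs cannot settle the pairing.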

Additional observations from a re-analysis of the deposited data

Results flagged for a closer look

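Each result here was singled out because the effect of -VE against ENR medium in Paneth cells differed from that in another class of the same libraries, by edgeR's test of the interaction of class and medium (adjusted p under 0.05, at least 2-fold). Against goblet cells the log2 effect was higher in Paneth cells for Ube2c (by 1.45) and Sct (by 1.04). It was lower for Acta1 (by -2.24) and Lyz1 (-1.11), the latter a gene that the paper used to name Paneth cells. Fitted values of -4.55 for Defa27, -3.80 for Defa22 and -2.20 for Defa34 also passed. Goblet levels of these genes were low, and these sizes are not read as a measure of a difference in response. In goblet cells Defa27 was at 0.490 to 0.785 scaled CPM in ENR and 0.979 and 6.09 in -VE medium, and without -VE replicate 2 none of the 3 was called (edgeR adjusted p of 0.296 to 0.927).

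Against stem cells the effect was higher in Paneth cells for Sprr1a (by 6.43), Itpripl2 (4.27), Nudt14 (1.28), Fam46c (1.13) and Tstd1 (1.03). Nudt14 was called in 8 of 12 alternatives and Tstd1 in 7 of 12. Sprr1a, a protein of epithelial barriers, was at 0, 1.59 and 0 scaled CPM in ENR and 1.70 and 13.3 in -VE Paneth cells, and its effect with a prior count of 2 was 1.63 in Paneth and -0.42 in stem cells. Itpripl2 was likewise scarce, at 1.59 to 2.36 in ENR and 11.9 and 8.57 in -VE Paneth cells. Both were called in 5 alternatives, of 12 and 11, and at such levels the fitted sizes are no measure of the response. The effect was lower in Paneth cells for Acta1 (by -2.59), 2210407C18Rik (-2.09), Itln1 (-1.27), Btg2 (-1.15) and Jun (-1.12). For 2210407C18Rik the class effects were -0.13 in Paneth and 1.69 in stem cells, where it rose from between 21 and 44 in ENR to 69.4 and 182.9 in -VE medium. Its difference was called in 10 of 12 alternatives.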

How the results depend on the processing

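With 2 or 3 libraries a medium, and 30 to 59 Paneth cells a library, the number of genes called moved with many choices and held with others. Every gene called in Paneth cells kept its direction in each alternative that tested it. The 64 genes called in -VE against ENR Paneth cells became 27 with DESeq2 and 131 with no filter on low counts, and ranged from 10 (without ENR replicate 2) to 90 (without -VE replicate 1) on leaving out 1 library, with 25 without ENR replicate 1 and 37 without -VE replicate 2. The 8 genes whose effect differed from goblet cells became 3 with DESeq2, 28 with no filter, 4 with a filter of 10 CPM in 2 libraries and 13 with cells thinned to 10000 UMIs, and ranged from 0 (without ENR replicate 2, by edgeR, where 681 genes had an unadjusted p under 0.05; DESeq2 on all libraries called 3) to 17 (without -VE replicate 1), with 14 without ENR replicate 3 and 2 without -VE replicate 2. The 19 that differed from stem cells became 62 with no filter and 12 with the 10 CPM filter, and ranged from 4 (without ENR replicate 1) to 25, with 7 without -VE replicate 2. The Paneth share reversed from -0.452 to 1.19 percentage points with cells taken by marker counts, was -0.0685 among cells with at least 1500 genes (exact permutation p = 0.4, groups overlapping) and -0.213 among cells with at least 5000 UMIs, and ranged from -0.604 to -0.185 (without ENR replicate 3) on leaving out 1 library. The Hyper share went from -1.60 to -0.727 points with cells taken by marker counts. Counts with a library left out rest on fewer samples, and otherwise the cause was not tested.

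As the sample codes and passages were read, replicate numbers 1 and 2 stand for culture series shared by both media. The labels do not state this pairing, and a fit that uses it leaves few residual degrees of freedom. With the series as a replicate block the counts were 104 for -VE against ENR (60 of the 64 among them), 22 against goblet and 36 against stem cells. Among named genes the block put Klf4, Sct and Tstd1 under 2-fold and brought Pgk1 and Pkm over it, and it changed no other call. Of all values for single genes, 1585 kept their side of the threshold under the alternatives, 49 of them with the direction changed (all of genes not called), 170 lost the call and 10 gained it, leaving out 23 for which DESeq2 gave no adjusted p.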
